A study of Mus musculus with 4 samples.

Results

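The genes described here are 36 members of the Hippo pathway and its transcriptional output in mouse embryonic stem cells. They were taken by name: 28 components (the co-activators Yap1 and Wwtr1, the TEAD factors, their cofactors, the kinase cascade, upstream regulators, and junctional and LIM-domain partners) and 8 target genes of YAP and TEAD. All 36 were among the 24428 genes of the count tables, and all 36 passed the filter on low counts that left 15763 genes to be tested. RNA-seq counts came from 4 libraries of strain 129SvEv cells, at passage 15 to 20, grown untreated in medium with 15% serum and LIF. All cells kept 1 normal Smarca4 allele, tagged with GFP, and the other allele, tagged with V5, was wild-type in the WT group (2 libraries) and G784E in the G784E group (2 libraries). Smarca4 is the ATPase of the BAF chromatin remodelling complex, and the study's title calls the mutation dominant-negative. How many clones the groups came from is not given in the sources used here, and nothing in the labels says that replicates were separate cultures, so the p-values rest on differences between libraries that could be technical repeats.

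The Hippo pathway is a kinase cascade that restrains growth. The kinases MST1 and MST2 (genes Stk4 and Stk3), helped by the scaffold SAV1, activate LATS1 and LATS2 with their MOB1 partners, and LATS phosphorylates the co-activators YAP and TAZ (genes Yap1 and Wwtr1) so that they stay in the cytoplasm. Unphosphorylated YAP and TAZ enter the nucleus and bind TEAD factors at target genes. In the early mouse embryo this switch separates outer trophectoderm, where YAP and TEAD4 are active, from the inner cell mass. RNA counts report none of the phosphorylation or location of YAP, so only the transcripts of components and targets are compared here.

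Most of the listed target genes fell in G784E cells. Of 8 targets, 6 fell (Ctgf, Cyr61, Ankrd1, Crim1, Dock5 and Myof), by 1.82-fold to 3.67-fold, and Igfbp3 and Axl did not pass. Of 28 components, 5 fell (Tead4, Amot, Amotl1, Amotl2 and Ptpn14), Ajuba rose and 22 did not pass. Those 22 include Yap1, Wwtr1 and all 8 genes of the kinase group. These calls are from a fit on group alone. A fit with replicate number added, which called more components lower, is given at the end. The targets therefore fell beside lower transcripts of the angiomotins, of Ptpn14 and of Tead4. Of these components, Amotl2 and Ptpn14 are themselves known YAP targets. A gene that did not pass is not shown to be unchanged. In all, 11 of the 36 genes were lower and 1 higher by the quasi-likelihood test of edgeR, at p under 0.05 after Benjamini-Hochberg adjustment over all genes tested. Over all 15763 genes, 2.56% passed, 1.89% as lower and 0.672% as higher. DESeq2 called 10 lower and 1 higher among the members, all of which but Vgll4 got an adjusted p (shares of 2.26% and 0.94% over the 11484 genes with one), and limma-voom 10 and 1 (2.31% and 1.18% of genes). At an unadjusted edgeR p under 0.05, 16 of the 36 were lower and 2 higher, against 6.48% and 5.14% of all genes. The median log2 fold change, G784E over WT, was -1.08 for the targets, -0.24 for the components and 0.00 for all genes tested. Taken between same-numbered libraries, the median of the targets was -0.93 in replicate 1 and -1.37 in replicate 2, and that of the components -0.26 and -0.23. Both G784E libraries lay below both WT libraries for 18 of the 36 genes and above them for 4, against 19.4% and 19.4% of all genes tested.

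**Figure D1:**
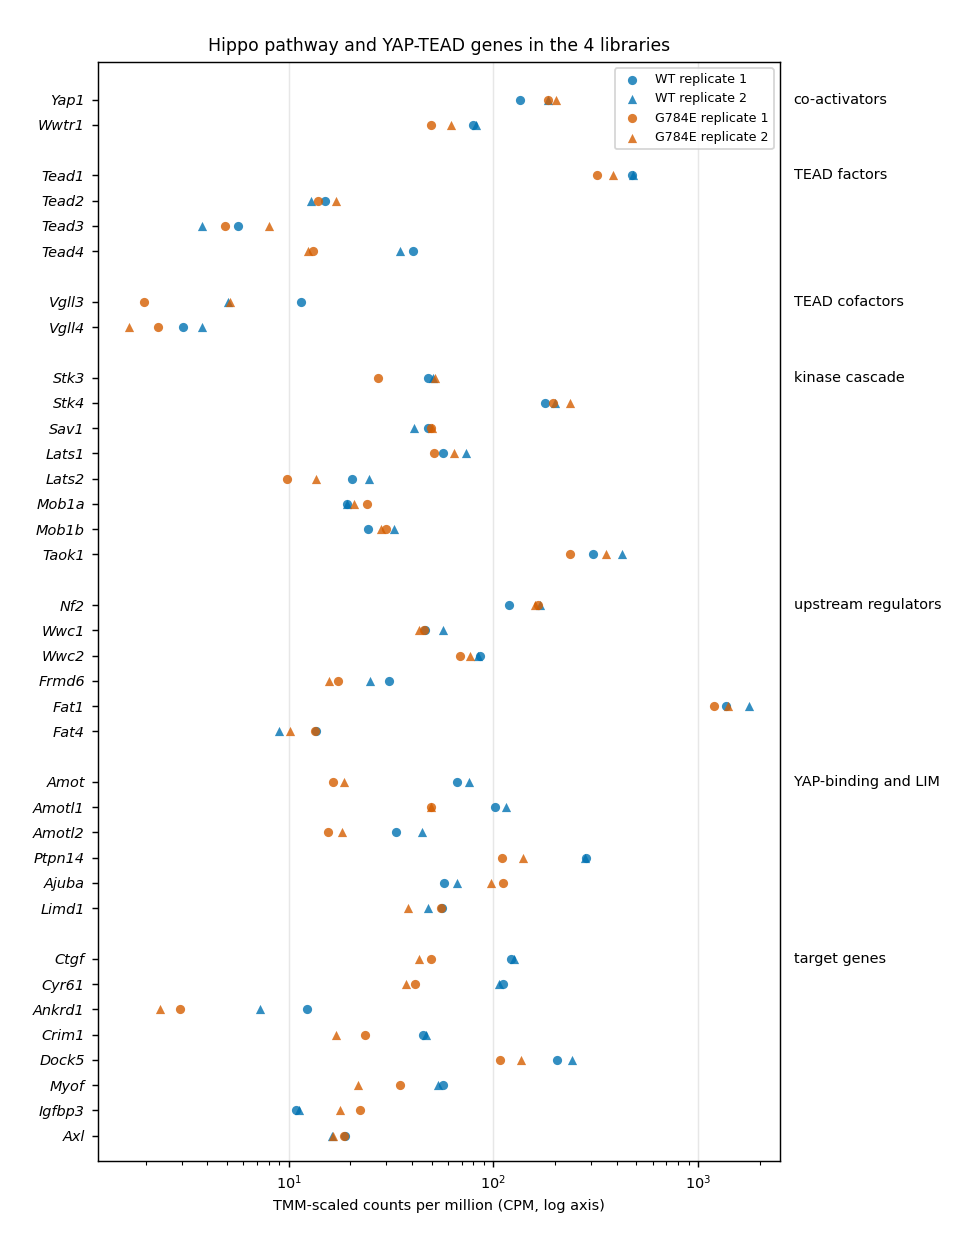
Level of each of the 36 genes in every library as TMM-scaled counts per 1e+06 (CPM, log axis), grouped by role, with WT in blue and G784E in orange and circles and triangles for replicates 1 and 2. For Ctgf, Cyr61, Amot, Amotl1, Ptpn14 and Tead4 the orange points stand clear to the left of the blue ones, for Ajuba and Igfbp3 to the right, and for Axl they coincide.

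**Figure D2:**
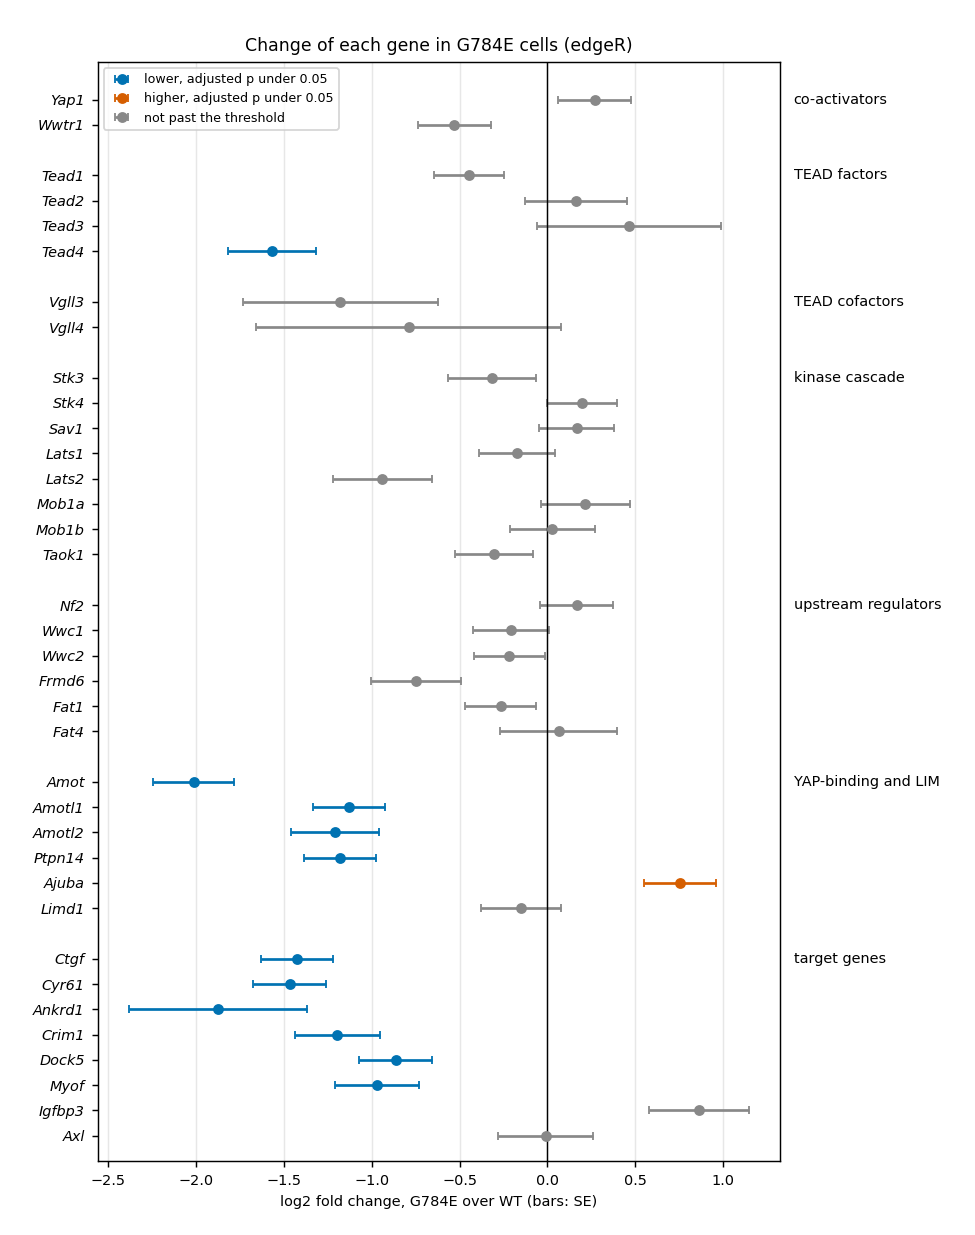
Log2 fold change of each gene, G784E over WT, with its standard error (SE) as the bar, from edgeR. Blue points (11 genes) were lower and the orange point (Ajuba) higher at an adjusted p under 0.05, and the 24 grey points did not pass.

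Reads counted to genes came to 7027108 and 10083442 for the WT libraries, and 6226145 and 8895433 for the G784E ones. Levels are given in CPM after TMM scaling, where 1 count stood for 0.102 to 0.164 CPM, and, per kb of exon, as mean ± SD (n = 2). Each log2 ratio is G784E over WT with its standard error (SE) after the ± sign, and adjusted p-values are over all genes tested. Smarca4 stood at 2423 and 2553 CPM in WT and at 3868 and 3580 CPM in G784E (log2 ratio 0.58 ± 0.19; adjusted p = 0.119 by edgeR), and its counts do not tell the alleles apart. Smarca4 did pass in DESeq2 (adjusted p = 0.00808) and in limma-voom (adjusted p = 0.03). Olfactory receptor genes, taken as a background of transcripts that stem cells are not known to make, gave 0.178 and 0.195 CPM per kb of exon in replicate 1 of WT and G784E and 0.0554 and 0.0827 in replicate 2. Of the 36 genes, 32 stood at 5 times that background or more in every library. Vgll3 (1.41 times), Vgll4 (2.17), Tead3 (3.74) and Fat4 (4) came closer to it in at least 1 library.

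Per kilobase of exon, Fat1, which encodes a giant atypical cadherin, was the highest of the 36 transcripts in WT, at 100.4 ± 18.4 CPM per kb. Cyr61 followed at 53.9 ± 1.71, Ctgf at 43.4 ± 1.03, Tead1 at 35.5 ± 0.295 and Stk4 at 32.3 ± 2.60 CPM per kb. Stk4 and the next in order, Taok1 (29.5 ± 6.62 CPM per kb), did not differ beyond their spread, and neither did Nf2 (21.1 ± 5.05) and Ptpn14 (21.1 ± 0.177). Targets and components were thus among the highest transcripts side by side. In G784E, Fat1 was still first at 83.5 ± 9.27 CPM per kb, Stk4 had rank 2 at 37.0 ± 4.87 and Ajuba rank 3 at 28.7 ± 2.60, while Cyr61 stood at rank 8 (19.5 ± 1.42) and Ctgf at rank 9 (16.2 ± 1.56). Exon lengths came from a GRCm38 annotation, whereas counting used mm9, so per-length levels are approximate.

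Neither co-activator passed the test fitted on group alone. Yap1 stood at 135 and 186 CPM in WT and at 185 and 202 CPM in G784E, and the groups overlapped (log2 ratio 0.27 ± 0.21; adjusted p = 0.763 by edgeR). Wwtr1, which encodes TAZ, stood at 79.2 and 82.1 CPM in WT and at 49.4 and 62.1 CPM in G784E. Both G784E libraries were below both WT libraries for Wwtr1, and the log2 fold change was -0.53 ± 0.21 (adjusted p = 0.257 by edgeR). As a share of the summed level per kb of both genes, Wwtr1 made up 53.2% and 46.1% in WT and 34.1% and 37.4% in G784E. The sum itself overlapped between groups, at 31.2 and 37.3 CPM per kb in WT and 30.4 and 34.8 in G784E. The share of Wwtr1 was thus smaller in both G784E libraries, which was not tested.

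Among the DNA-binding TEAD factors, Tead4 fell. It stood at 40.5 and 35 CPM in WT and at 13.1 and 12.4 CPM in G784E, 2.97-fold lower (log2 ratio -1.57 ± 0.25; adjusted p = 0.00038 by edgeR). Tead4 is known as the TEAD factor that trophectoderm formation requires. Tead1, the most abundant of the 4 per kb, stood at 478 and 484 CPM in WT and at 323 and 384 CPM in G784E (log2 ratio -0.45 ± 0.20; adjusted p = 0.353 by edgeR). Its groups did not overlap, and the difference did not pass the test fitted on group alone. Tead2 (15.1 and 12.8 CPM in WT, 13.9 and 17.1 in G784E) and Tead3 (5.68 and 3.76 CPM in WT, 4.91 and 8.01 in G784E) overlapped between groups. Their log2 fold changes were 0.16 ± 0.29 and 0.46 ± 0.52. Summed over the family, TEAD transcripts came to 50.5 and 48.6 CPM per kb in WT and 31.0 and 36.5 in G784E. Tead1 made up 69.8% and 73.3% of that sum in WT and 76.6% and 77.5% in G784E, and Tead4 22.3% and 20% against 11.7% and 9.43%. The summed TEAD level was thus lower in both G784E libraries, with Tead1 still the main part. The sum was not tested.

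The Vestigial-like cofactors, which compete with YAP for TEAD, were scarce. Vgll3 stood at 11.5 and 5.08 CPM in WT and at 1.96 and 5.18 CPM in G784E, and Vgll4 at 3.04 and 3.76 CPM in WT and 2.29 and 1.65 CPM in G784E. Neither passed (log2 fold changes -1.18 ± 0.56, and -0.79 ± 0.87; adjusted p = 0.411 and 0.895 by edgeR). At these low counts, the value of Vgll3 was -2.04 without G784E replicate 2 and -0.49 without WT replicate 1.

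**Figure D3:**
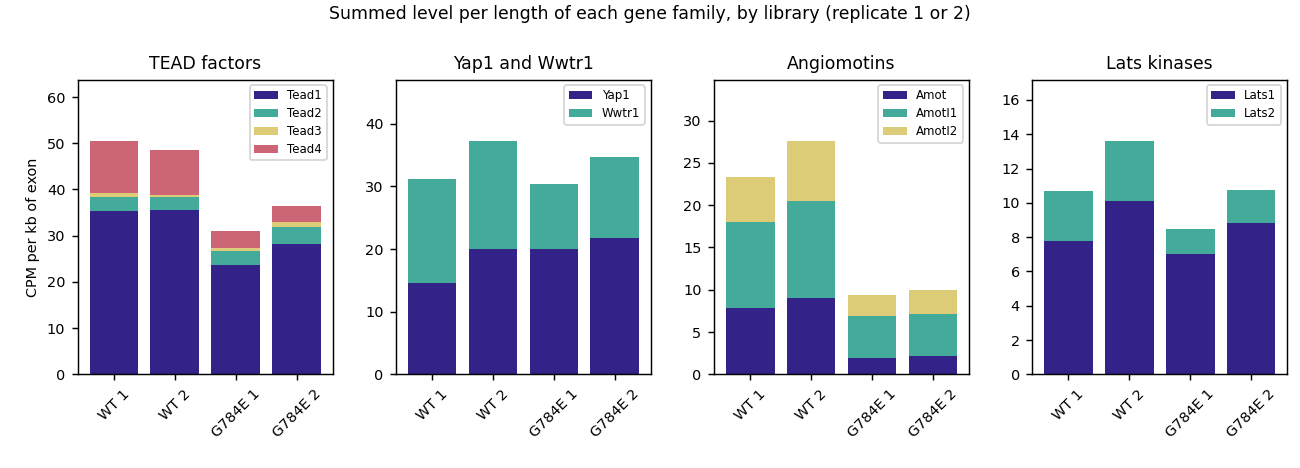
Summed level per kb of exon in each library (replicates 1 and 2 of WT, then of G784E) for the TEAD factors, the co-activators, the angiomotins and the LATS kinases, with each gene's part in its own colour. The angiomotin bars are lower in both G784E libraries (9.37 and 10.02 CPM per kb against 23.3 and 27.6), the TEAD bars are lower mainly through Tead1 and Tead4, and the bars of Yap1 with Wwtr1 overlap between groups.

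None of the 8 genes of the kinase cascade passed in either direction in edgeR (fitted on group alone), DESeq2 or limma-voom, and 1 of them, Lats2, had an unadjusted edgeR p under 0.05. With 2.56% of all genes called, and 6.48% lower and 5.14% higher at an unadjusted p under 0.05, so few calls among 8 genes are near the background. Lats2, whose product phosphorylates YAP and whose gene is itself a known YAP target, stood at 20.5 and 24.6 CPM in WT and at 9.82 and 13.5 CPM in G784E. The groups did not overlap, and the log2 fold change was -0.94 ± 0.28 (adjusted p = 0.0873 by edgeR). By edgeR, Lats2 passed without G784E replicate 2 (-1.18 at adjusted p = 0.0137). Its paralogue Lats1, the more abundant of the pair per kb, stood at 56.8 and 73.6 CPM in WT and at 51.4 and 64.3 CPM in G784E, with overlapping groups (-0.17 ± 0.22). Lats2 made up 27.4% and 25.9% of the summed Lats level per kb in WT and 16.7% and 18.1% in G784E.

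Upstream in the cascade, the MST kinase genes Stk4 and Stk3 had log2 fold changes of 0.20 ± 0.20 and -0.31 ± 0.25, and the scaffold gene Sav1 of 0.17 ± 0.21. Stk3 was low in 1 G784E library, at 27.3 CPM in replicate 1 against 51.6 in replicate 2 and 47.9 and 50.8 in WT. It passed as lower without G784E replicate 2 (-0.83 at adjusted p = 0.0252 by edgeR) and turned to 0.08 without G784E replicate 1. The kinase gene Taok1, which acts on MST, overlapped between groups (308 and 424 CPM in WT, 237 and 355 in G784E; -0.30 ± 0.22). Mob1a and Mob1b, close paralogues for LATS-activating proteins whose shared reads may be lost or split in counting, stood at 0.22 ± 0.25 and 0.03 ± 0.24. A share of the exon sequence of Sav1 overlaps Atl1, a gene of the count tables, on the opposite strand in GRCm38 (25.4%), and the strand setting of the counting is not known.

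The upstream regulators, which link the cascade to polarity and cell contact, gave no call in 6 tested genes in edgeR, DESeq2 or limma-voom, with 2.56% of all genes called in edgeR. Frmd6, a FERM-domain gene whose product is known to activate the cascade, came closest: it stood at 30.8 and 25 CPM in WT and at 17.5 and 15.7 CPM in G784E, without overlap (log2 ratio -0.75 ± 0.26; adjusted p = 0.16 by edgeR). Nf2, the gene of the tumour suppressor Merlin, stood at 120 and 169 CPM in WT and at 165 and 160 CPM in G784E (0.17 ± 0.21). Wwc1 and Wwc2, which encode KIBRA and its paralogue, had values of -0.21 ± 0.22 and -0.22 ± 0.20. The cadherin genes Fat1 and Fat4 had values of -0.27 ± 0.20 and 0.06 ± 0.33, and both overlapped between groups. Of the 6, only Frmd6 had an unadjusted p under 0.05.

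Among components, 4 of the 5 decreases were in genes whose products bind YAP at junctions. Angiomotins hold YAP in the cytoplasm and at tight junctions and can activate LATS. Amot, the X-linked founder of the family, stood at 66.2 and 76.0 CPM in WT and at 16.5 and 18.6 CPM in G784E, 4.04-fold lower (log2 ratio -2.01 ± 0.23; adjusted p = 4.34e-06 by edgeR). This was the largest decrease among the 36 genes. Amotl1 stood at 102 and 115 CPM in WT and at 49.6 and 49.4 CPM in G784E, 2.19-fold lower (log2 ratio -1.13 ± 0.21; adjusted p = 0.00164 by edgeR). Amotl2, itself a known YAP target, stood at 33.5 and 44.8 CPM in WT and at 15.5 and 18.3 CPM in G784E, 2.31-fold lower (log2 ratio -1.21 ± 0.25; adjusted p = 0.00593 by edgeR). All members of the family were thus lower in both G784E libraries than in either WT library. Amotl2 lost its call without WT replicate 2 (-0.98 at adjusted p = 0.195 by edgeR). Amot made up 33.8% and 32.8% of the family's summed level per kb in WT and 21% and 22.1% in G784E, a share that was not tested.

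Ptpn14 encodes a phosphatase that binds YAP and keeps it out of the nucleus, and its gene is also a known YAP target. It stood at 285 and 281 CPM in WT and at 110 and 139 CPM in G784E, 2.27-fold lower (log2 ratio -1.18 ± 0.20; adjusted p = 0.000925 by edgeR). The LIM-domain genes Ajuba and Limd1 encode proteins that bind and inhibit LATS at junctions. Ajuba was the 1 gene of the 36 that rose, from 57.6 and 66.2 CPM in WT to 111 and 97.9 CPM in G784E, 1.69-fold higher (log2 ratio 0.75 ± 0.20; adjusted p = 0.0479 by edgeR). The call of Ajuba was near the threshold: by edgeR it was lost without WT replicate 1 (0.66 at adjusted p = 0.598), WT replicate 2 (0.86 at adjusted p = 0.16) or G784E replicate 1 (0.68 at adjusted p = 0.0533), under RLE scaling (0.76 at adjusted p = 0.0686), when unfiltered (0.71 at adjusted p = 0.128) and after removal of the ribosomal RNA gene Rn45s (0.72 at adjusted p = 0.0667). Limd1 overlapped between groups, at 56.0 and 47.9 CPM in WT and 55.6 and 38.3 CPM in G784E (-0.15 ± 0.23).

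Ctgf and Cyr61, the matricellular genes also called Ccn2 and Ccn1 and widely used readouts of YAP activity, both fell. Ctgf stood at 122 and 126 CPM in WT and at 49.4 and 43.1 CPM in G784E, 2.69-fold lower (log2 ratio -1.43 ± 0.21; adjusted p = 0.000117 by edgeR). Cyr61 stood at 111 and 106 CPM in WT and at 41.4 and 37.3 CPM in G784E, 2.76-fold lower (log2 ratio -1.47 ± 0.21; adjusted p = 8.83e-05 by edgeR). For both, every G784E library lay below every WT library by far more than the libraries of a group differed.

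Ankrd1, which encodes a muscle ankyrin-repeat protein and is another common YAP readout, was low: 12.3 and 7.21 CPM in WT and 2.95 and 2.36 CPM in G784E, or 93 and 71 counts against 18 and 20. It was 3.67-fold lower (log2 ratio -1.88 ± 0.51; adjusted p = 0.0474 by edgeR), a call near the threshold. By edgeR, the call ended without WT replicate 1 (-1.44 at adjusted p = 0.868), WT replicate 2 (-2.21 at adjusted p = 0.109) or G784E replicate 2 (-1.70 at adjusted p = 0.0659), under upper-quartile scaling (-1.89 at adjusted p = 0.0915), with a stricter filter (-1.89 at adjusted p = 0.0675) and without Rn45s (-1.91 at adjusted p = 0.0513). It also did not pass in DESeq2 (-1.88 at adjusted p = 0.0722) or limma-voom (-1.80 at adjusted p = 0.122).

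Crim1, a transmembrane regulator of BMP signalling, stood at 45.3 and 47.0 CPM in WT and at 23.6 and 17.0 CPM in G784E, 2.29-fold lower (log2 ratio -1.20 ± 0.24; adjusted p = 0.00479 by edgeR). Dock5, a guanine nucleotide exchange factor for Rac, stood at 204 and 242 CPM in WT and at 108 and 137 CPM in G784E, 1.82-fold lower (log2 ratio -0.86 ± 0.21; adjusted p = 0.0198 by edgeR). Myof, the membrane-repair gene myoferlin, stood at 56.7 and 53.9 CPM in WT and at 34.9 and 21.9 CPM in G784E, 1.96-fold lower (log2 ratio -0.97 ± 0.24; adjusted p = 0.0246 by edgeR). None of these overlapped between groups, but the calls of Dock5 and Myof depended on single libraries. Dock5 lost its call without G784E replicate 1 (-0.68 at adjusted p = 0.0888 by edgeR) or WT replicate 2 (-0.73 at adjusted p = 0.202). Myof did not pass under upper-quartile scaling (-0.96 at adjusted p = 0.0631 by edgeR) or without WT replicate 1 (-0.93 at adjusted p = 0.186), WT replicate 2 (-1.004 at adjusted p = 0.0854) or G784E replicate 2 (-0.64 at adjusted p = 0.106), the last of which also moved its value by over 1.5 times.

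The remaining targets, Igfbp3 and Axl, did not pass the test. Igfbp3, the gene of a secreted binding protein for insulin-like growth factors, stood at 10.8 and 11.3 CPM in WT and at 22.4 and 17.9 CPM in G784E. It lay higher without overlap, with a log2 fold change of 0.86 ± 0.28 (adjusted p = 0.137 by edgeR), and passed without G784E replicate 2 (1.04 at adjusted p = 0.0312). Axl, a receptor tyrosine kinase gene, stood at 18.9 and 16.3 CPM in WT and at 18.7 and 16.4 CPM in G784E (log2 ratio -0.01 ± 0.27; adjusted p = 1 by edgeR). Neither was thus lower in the mean beyond its error.

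**Figure D4:**
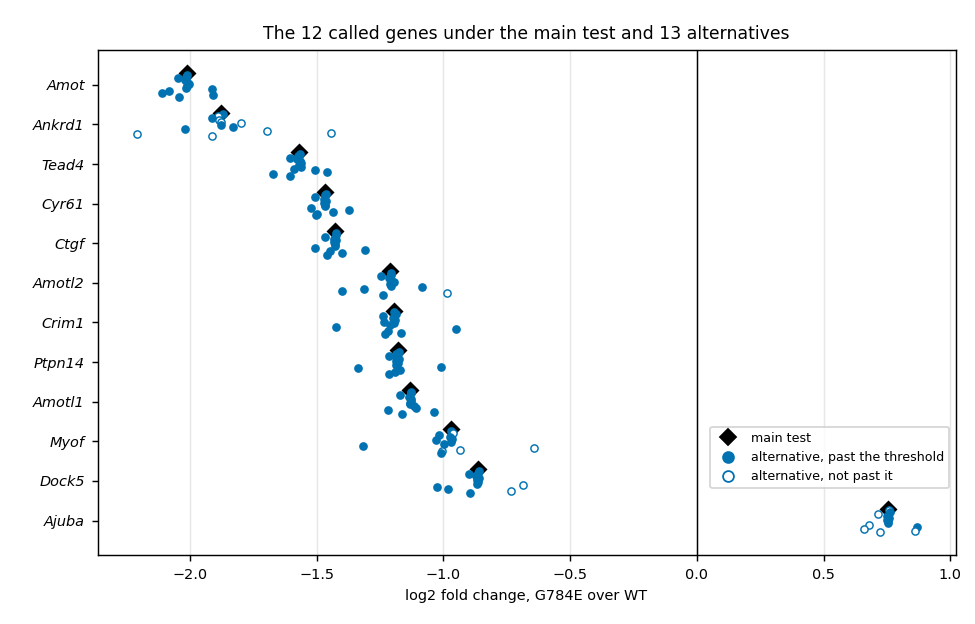
Log2 fold change, G784E over WT, of the 12 genes past the threshold, in the main test (black diamonds) and in 13 alternatives (circles, open where the adjusted p was not under 0.05). All values of the 11 lower genes lie left of 0, and Amot, Tead4, Cyr61, Ctgf, Crim1, Ptpn14 and Amotl1 have filled symbols throughout.

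Of the 11 genes that fell, 7 passed in each of the 13 alternatives run (Tead4, Amot, Amotl1, Ptpn14, Ctgf, Cyr61 and Crim1), and all 11 kept a value below 0 in each. WT replicate 2 was the library whose removal ended most of these calls: without it, 7 of the 11 were still called, with 3 of the targets, and the targets' median was -1.09.

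The promoters of the fallen genes are shown because TEAD factors recognise a short DNA motif, and its letters can be looked for directly. The sequence GGAATG was searched on both strands (CATTCC on the strand shown) in the 250 bases upstream of each start site in RefSeq's annotation of GRCm38.p6. Of the 36 genes, 30 had an entry, and 16 of these (53.3%) held the motif in the window of at least 1 start, against 13.3% of the 11916 tested genes with an entry and 12.6% of all 32851 promoters. It was found in 5 of 8 fallen genes with an entry (62.5%) and in 11 of 22 others (50%), so it was common among members whether or not they fell. Tead1, Tead4, Stk3, Limd1, Ctgf and Dock5 are the genes without an entry. Yap1, Wwtr1, Ajuba and Axl, which did not fall past the threshold, held it too, while the windows of Amot, Amotl1 and Myof did not hold these letters. The windows of the 5 fallen genes with a match follow, 5′ to 3′ along the gene's strand and ending at the base before the start site, with the motif in capitals.
Cyr61 promoter, chr3:145649986-145650235, minus strand: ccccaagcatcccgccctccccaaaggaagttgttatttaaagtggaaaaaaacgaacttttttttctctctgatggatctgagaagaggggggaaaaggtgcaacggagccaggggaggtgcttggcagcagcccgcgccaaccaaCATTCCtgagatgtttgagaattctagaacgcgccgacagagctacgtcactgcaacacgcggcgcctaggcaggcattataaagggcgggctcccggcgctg
Ankrd1 promoter, chr19:36119845-36120094, minus strand: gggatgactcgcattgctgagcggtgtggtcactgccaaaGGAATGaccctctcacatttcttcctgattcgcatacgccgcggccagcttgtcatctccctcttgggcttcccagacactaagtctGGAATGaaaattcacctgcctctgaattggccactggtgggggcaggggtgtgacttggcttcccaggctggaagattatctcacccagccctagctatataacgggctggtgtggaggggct
Crim1 promoter, chr17:78199998-78200247, plus strand: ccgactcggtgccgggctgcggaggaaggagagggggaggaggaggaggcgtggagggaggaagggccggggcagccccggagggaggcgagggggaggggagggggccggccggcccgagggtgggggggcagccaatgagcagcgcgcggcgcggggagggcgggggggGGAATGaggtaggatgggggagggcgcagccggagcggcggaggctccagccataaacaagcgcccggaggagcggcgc
Amotl2 promoter, chr9:102717554-102717803, plus strand: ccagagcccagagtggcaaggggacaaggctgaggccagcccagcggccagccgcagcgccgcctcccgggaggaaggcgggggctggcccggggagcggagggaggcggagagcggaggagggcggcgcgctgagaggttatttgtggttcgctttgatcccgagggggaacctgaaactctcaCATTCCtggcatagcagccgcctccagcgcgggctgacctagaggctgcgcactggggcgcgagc
Ptpn14 promoter, chr1:189728018-189728267, plus strand: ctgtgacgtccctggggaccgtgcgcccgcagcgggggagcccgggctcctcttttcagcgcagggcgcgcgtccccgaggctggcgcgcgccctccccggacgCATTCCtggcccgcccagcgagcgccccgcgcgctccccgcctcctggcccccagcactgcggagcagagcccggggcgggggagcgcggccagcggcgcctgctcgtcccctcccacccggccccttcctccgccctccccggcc
In Cyr61 the match began 103 bases upstream of the start, in Crim1 79, in Amotl2 65 and in Ptpn14 146 bases upstream, and Ankrd1 held 2 matches, 210 and 123 bases upstream. A match describes the letters only, and binding was not measured in these libraries. These are the 5 genes whose levels were 2.76-fold, 2.29-fold, 2.31-fold, 2.27-fold and 3.67-fold lower, in the same order.

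Other target genes of YAP and TEAD, taken from a wider list of 25, are given for comparison. Of 23 tested, 3 fell, 1 rose and 19 gave no call, and the median log2 ratio was -0.27. At an unadjusted edgeR p under 0.05, 7 of the 23 lay lower and 1 higher, against 6.48% and 5.14% of all genes. Foxf2 and Areg were too low to test. F3, the tissue factor gene, stood at 23.1 and 26.1 CPM in WT and at 4.42 and 4.48 CPM in G784E, 5.52-fold lower (log2 ratio -2.46 ± 0.31; adjusted p = 2.01e-05 by edgeR). Flnc, which encodes the actin crosslinker filamin C, was 2.24-fold lower (54.8 and 49.0 CPM in WT, 27.3 and 19.3 in G784E; adjusted p = 0.0054 by edgeR), and Anxa1, the annexin A1 gene, 2.05-fold lower (24.2 and 25.4 CPM in WT, 9.98 and 14 in G784E; adjusted p = 0.0411 by edgeR). In the other direction, Gli2, a transcription factor gene of Hedgehog signalling, rose 2.43-fold from 42.8 and 42.0 CPM to 106 and 100.2 CPM (adjusted p = 0.000375 by edgeR). Flnc lost its call without WT replicate 1 (-1.08 at adjusted p = 0.0823 by edgeR). Anxa1 lost its call without WT replicate 1 (-1.07 at adjusted p = 0.248 by edgeR), WT replicate 2 (-1.002 at adjusted p = 0.304) or G784E replicate 1 (-0.80 at adjusted p = 0.114), under upper-quartile scaling (-1.05 at adjusted p = 0.0541) or in DESeq2 (-1.03 at adjusted p = 0.128). Birc5, the survivin gene often used as a proliferative YAP target, overlapped between groups (42.4 and 52.6 CPM in WT, 47 and 45 in G784E). The fall was thus seen in 13% of these tested targets and in 75.0% of the 8 listed ones, against 1.89% of all genes.

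Other genes of the pathway were mostly not called. Of 62 tested (MAP4K and NDR kinases, RASSF proteins, the STRIPAK phosphatase complex, polarity complexes and 14-3-3 proteins), 2 fell, none rose in edgeR and 60 gave no call, and the median was -0.02. Rassf6, Vgll1 and Vgll2 were too low to test. At an unadjusted p under 0.05, 5 of them lay lower and 2 higher. Over all genes, 1.89% were called lower, and 6.48% lay lower and 5.14% higher at an unadjusted p under 0.05, so these counts are near the background. Inadl, the gene of the Crumbs-complex scaffold PATJ at tight junctions, stood at 54.3 and 39.8 CPM in WT and at 19.8 and 17.3 CPM in G784E, 2.54-fold lower (log2 ratio -1.34 ± 0.24; adjusted p = 0.00167 by edgeR). Map4k3, a kinase gene that acts beside MST on LATS, stood at 118 and 135 CPM in WT and at 57.9 and 80.2 CPM in G784E, 1.82-fold lower (log2 ratio -0.87 ± 0.21; adjusted p = 0.0245 by edgeR). Inadl lost its call without WT replicate 1 (-1.10 at adjusted p = 0.0995 by edgeR). Map4k3 lost its call without WT replicate 1 (-0.96 at adjusted p = 0.0566 by edgeR), WT replicate 2 (-0.77 at adjusted p = 0.203) or G784E replicate 1 (-0.64 at adjusted p = 0.11).

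Markers of some other cell types moved in the same comparison, and in bulk RNA fewer cells of a type and less RNA per cell cannot be told apart. Of 16 tested endoderm markers, 13 were lower and none higher, against 1.89% and 0.672% of all genes. Their median log2 fold change was -3.31. Hnf4a, Foxa2 and Afp gave no call. Hnf4a (log2 ratio -2.32 ± 0.81) and Foxa2 (-3.01 ± 1.16), at 3 to 57 counts per library, lay lower without overlap. Afp had a value above 0 (0.79 ± 1.33) and overlapped between groups. Ttr, too low to test, stood at 0.528 and 0.406 CPM in WT and at 0.818 and 0.942 CPM in G784E. The summed level of the 18 listed endoderm markers ran from 6549 to 6883 CPM in WT and from 795 to 796 CPM in G784E. Gata6, a defining factor of primitive endoderm, stood at 33.1 and 32.4 CPM in WT and at 2.29 and 2.59 CPM in G784E, 13.3-fold lower, and Col4a1 was 13.9-fold lower. Of the 18, Amn was at 0 counts in G784E replicate 2. The median endoderm marker was thus lower by more than any of the 36 Hippo genes, and the part of these markers in the fall of Ctgf, Cyr61, the angiomotins and the other genes above was not tested.

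Trophectoderm markers were few and low. Of 12 tested, 3 were lower (Eomes, Krt8 and Krt18) and none higher, against 1.89% and 0.672% of all genes, with a median of -1.06. At an unadjusted edgeR p under 0.05, 4 lay lower and 1 higher, against 6.48% and 5.14% of all genes. The higher one was Tfap2c, at 19.7 and 20.2 CPM in WT and 32.4 and 30.3 CPM in G784E, without overlap. The list's sum ran from 139 to 141 CPM in WT and from 75.5 to 88.5 CPM in G784E. Cdx2, the trophectoderm factor gene downstream of YAP and TEAD4 in the embryo, stood at 2.77 and 0.508 CPM in WT and at 3.27 and 0.353 CPM in G784E, and Esx1 was at 0 counts in G784E replicate 1. Fibroblast markers, of a cell type rich in Ctgf and Cyr61 that such cultures can hold as feeders, gave no call among 12 tested genes in edgeR (none at an unadjusted p under 0.05), with sums of 181 to 221 CPM in WT and 201 to 205 CPM in G784E. The fibroblast sums overlapped between groups, and their part in the fall of the targets was not tested beyond these values. Of 12 stem cell markers, none passed in edgeR, 1 (Nanog) had an unadjusted p under 0.05, and their median was 0.21. Both G784E libraries lay above both WT libraries for 7 of these and below for 1, against 19.4% and 19.4% of all genes tested. Their sum ran from 3503 to 4060 CPM in WT and from 4342 to 4369 CPM in G784E. Defining genes of the labelled cell type were present, with Pou5f1 at 176 to 239 CPM and Sox2 at 149 to 195 CPM over the 4 libraries.

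**Figure D5:**
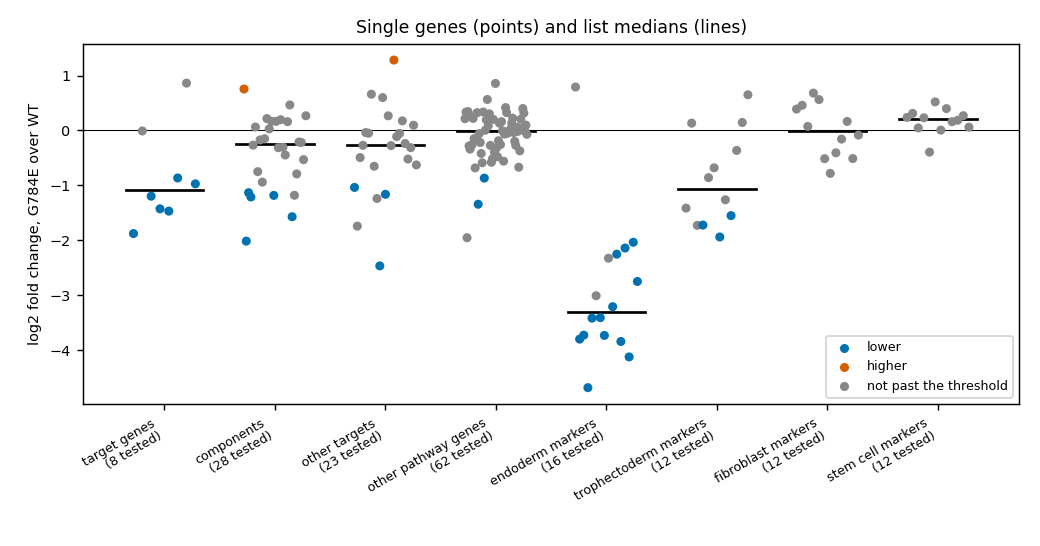
Log2 fold change, G784E over WT, of every tested gene (points) in 8 lists with the list median (line), coloured by the edgeR call. The medians of the 8 targets (-1.08) and 12 trophectoderm markers (-1.06) lie below those of the components (-0.24) and of the other targets (-0.27), and the endoderm markers lie lowest (-3.31).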

How the data were processed

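The authors deposited raw counts per gene symbol for each library. The submitters' processing notes name mm9 as build and, as tools, HTSeq, DESeq2, CASAVA (1.8.2) and Bowtie2 (2.1.0). Annotation, counting mode and strand setting: not given in the sources used here. Poly(dT)-captured RNA was sequenced, per the labels' protocols. Summary rows, left out of library sizes and tests, held 83.3% to 88.7% of the reads, and Rn45s took 10.0% to 16.0% of the gene counts.

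Tests used the quasi-likelihood fit of edgeR (4.0.16, under R 4.3.3), TMM scaling, filterByExpr (minimum count 10, minimum total 15), group alone (2 residual degrees of freedom) and Benjamini-Hochberg adjustment over 15763 genes, at a threshold of 0.05. The SE is the size of the log2 fold change divided by the square root of F. Levels per kb used the exon union of GENCODE M21 (GRCm38), matched by symbol for all 36 genes. A floor of 3 counts was 0.305 to 0.491 CPM, for counting error only.

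As alternatives, scaling was by upper quartile or RLE, the filter was dropped or tightened (50 counts in all, 1 CPM in 2 libraries), the tool was limma-voom (limma 3.58.1) or DESeq2 1.42.0, the prior was made robust, replicate number was added as a block, and Rn45s or 1 library at a time was removed. With a library left out, the remaining one was taken to vary as the other group does. The members, lists, tests and alternatives were chosen with earlier results of these data known, so no list is independent evidence. Values per library are given for genes past the threshold, for Yap1, Wwtr1, the TEAD factors, Ctgf, Cyr61 and Ankrd1 and at an unadjusted p under 0.05; of the 2 wider lists, up to 4 risen and 4 fallen genes past the threshold. Other genes (Birc5, Stk3, Taok1, Nf2, Lats1, Vgll4, Axl, Limd1 and the markers named) were chosen after their values were seen.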

Additional observations from a re-analysis of the deposited data

How the results depend on the processing

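The number of members called lower (11) was 9 to 11 under the other scalings, filters, tools, the robust prior and without Rn45s. With 1 library left out it was 7 to 11, the number of targets called lower 3 to 5 and of components 4 to 7. These are counts and not always of the same genes: without G784E replicate 2, 9 of the 11 were still called, Ankrd1 and Myof were not, and Stk3 and Lats2 were called in addition. The 1 higher member was 0 with RLE scaling, with no filter and without Rn45s, and 0 to 2 with 1 library left out (components 0 to 1). Among other pathway genes the count lower was 0 to 3 with 1 library left out, and among other targets 1 to 4. Over all genes, 298 lower and 106 higher became 156 to 532 and 29 to 307 with 1 library left out, and limma-voom called 186 higher. The level order of the 36 genes by the longest transcript had a Spearman rho of 0.977 with that by exon union.

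The replicate number is shared between groups, but nothing in the labels says what it marks, and there are only 2 pairs. Over genes, the deviations of same-numbered libraries from their group means correlated at 0.487, as a description. With the replicate block, 658 genes were lower and 546 higher, 14 members were lower with 8 components among them (Wwtr1 at -0.54, Tead1 at -0.45 and Lats2 at -0.95 added; edgeR, adjusted p = 0.0316, 0.00615 and 0.0267), and the other lists had 4 pathway genes and 6 targets lower. The block changed no other call among the 36.

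Values that did not pass in the main test changed sign in these cases: Mob1b with no filter (-0.011) and without Rn45s (-0.0033), and, over the libraries left out, Mob1b (-0.16 to 0.26), Stk3 (-0.83 to 0.082), Lats1 (-0.35 to 0.029), Nf2 (-0.057 to 0.43), Fat4 (-0.21 to 0.39), Limd1 (-0.42 to 0.12) and Axl (-0.11 to 0.11). The cause of these moves was not tested. Depth limits Ankrd1, Vgll3, Vgll4 and Tead3 most, with 12 to 93 counts per library.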
